A study of Mus musculus with 18 samples.

Results

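Smooth muscle type contractile genes encode the actins, the myosin chains and the actin binding proteins with which vascular and visceral smooth muscle cells shorten. The 9 genes described here were chosen by name as contractile cytoskeleton genes, namely Acta2, Actg2, Tagln, Cnn1, Cald1, Tpm1, Tpm2, Myl9 and Myh11, after Acta2 had been noted for a large rise with time in serum in these same data. The untreated time course of these genes is therefore given as a description with no test, and tests are given for the effect of TNF and for the other gene lists. All 9 genes are in the count table of 54838 genes, and all 9 passed the filter on low counts that left 20067 genes for testing. Actg2 passed it through its libraries at 24 h, with and without TNF, and was at 0.282 CPM or less in the other conditions.

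The RNA came from 18 cultures in 6 conditions with 3 replicates each. Neural stem cells were taken from the ventricular zone of C57BL/6J wild type mouse embryos at day 14 and grown as neurospheres (NSPs) in B27 medium with EGF, and this proliferating state is the NSP condition. The other conditions were cells moved to DMEM with 10% FBS on coated plates, a protocol that turns NSPs towards astrocytes, and collected after 24 h, 72 h or 1 week without treatment, or after 24 h or 72 h with TNF at 50 ng/ml. EGF and B27 were withdrawn in the same step in which serum was added, so that the effects of these changes cannot be told apart. Total RNA was depleted of ribosomal RNA, made into stranded libraries and counted per gene. Nothing in the labels says whether replicates of a condition came from separate brains, and p-values then measure only the spread between these cultures.

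In smooth muscle, calcium and the kinase MYLK lead to phosphorylation of the myosin regulatory light chain, which switches the motor on. Most of these contractile genes carry CArG boxes, short A and T rich sites bound by serum response factor (SRF). SRF acts there with MYOCD, a cofactor of smooth and cardiac muscle, or with MRTFA and MRTFB, cofactors that are released into the nucleus when actin monomers are used up in stress fibres. Several of the same genes are also expressed outside muscle, in myofibroblasts, pericytes and cells that spread on a stiff surface in serum.

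Total counts ranged from 12509693 to 22549627 per library (median 16794798), which is the depth behind all levels below. Levels are given as CPM, counts scaled to the library size, after TMM scaling. Of 8 neural stem cell markers 6 fell from NSPs to 24 h, Pax6 rose and Prom1 did not pass, where 52.7% of all genes were called. Gfap, the intermediate filament of astrocytes, rose 5.05 on the log2 scale (SE 0.64, edgeR adjusted p = 3.89e-06). Replicate 1 of both TNF conditions stood apart from its 2 partners. Of the genes tested, 18.8% had their lowest value in replicate 1 at both TNF times, against 6 of the 9 contractile genes (Acta2, Tagln, Cnn1, Myl9, Tpm1 and Cald1). A level in replicate 1 under 0.5 times both partners at both times was found for 0.817% of genes, and Acta2, Tagln, Myl9 and Tpm1 were among them. In the same replicate 6 of 8 astrocyte markers were highest at both times, and Gfap was at 1871 CPM against 463 and 596 at 24 h TNF and at 1022 CPM against 217 and 229 at 72 h TNF. RNA quality is known only as a range over the study, and its part in this pattern was not tested. Of 15 paralogs of these genes and of 19 stress fibre partners, 9 each were also lowest in replicate 1 at both times. TNF results of the contractile genes are given with and without these 2 libraries below. NSP replicate 1 also differed from its partners for some of these genes.

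The members lie on 6 chromosomes of GRCm38 (GENCODE M21). Acta2 (ENSMUSG00000035783) is at chr19:34241090-34255590 on the minus strand, Actg2 (ENSMUSG00000059430) at chr6:83512905-83536265 on the minus strand and Myl9 (ENSMUSG00000067818) at chr2:156775420-156781658 on the plus strand. Tpm1 (ENSMUSG00000032366) is at chr9:67022590-67049406 on the minus strand and Tpm2 (ENSMUSG00000028464) at chr4:43514711-43523765 on the minus strand. Chromosome 9 also holds Tagln (ENSMUSG00000032085), at chr9:45929619-45936058 on the minus strand, and Cnn1 (ENSMUSG00000001349), at chr9:22099216-22109630 on the plus strand. Cald1 (ENSMUSG00000029761) is at chr6:34598500-34775473 on the plus strand and Myh11 (ENSMUSG00000018830) at chr16:14194535-14291372 on the minus strand. The exons of Tagln share 1241 bases with the antisense gene Gm48529 and 108 bases with Pcsk7 on the opposite strand. The strand setting of the counting is not given in the sources used here, so that low Tagln counts may hold reads of these neighbours. The actin genes are alike in their coding sequence, and how reads matching several of them were treated is not stated, so that the small counts of Actg2, Acta1 and Actc1 are uncertain.

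The sequences given next hold short motifs known from promoters of muscle and serum response genes. RefSeq windows of the 250 bases before the start (GRCm38.p6) were at hand for 6 of the 9 members, and positions are counted back from that RefSeq start. It lies inside the GENCODE gene, by 217 bases for Acta2, 193 for Tpm1 and 44 for Myl9, so that the motifs of Acta2 and Tpm1 fall in an exon that GENCODE annotates. For Acta2 and Tpm1 the 30 bases around each motif are shown, and for Myl9 the 206 bases of the window before its first GENCODE exon. These are the 3 members with the highest levels per length in the differentiating cells, and the sequences run from 5′ to 3′ on the strand of the gene. Capitals mark a CArG box in which at most 1 of the 6 middle bases is G or C, or the sequence CATTCC of the MCAT element bound by TEAD factors, on either strand.
Acta2 at -158 to -129, chr19:34255502-34255531, minus strand: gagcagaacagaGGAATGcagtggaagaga
Acta2 at -94 to -65, chr19:34255438-34255467, minus strand: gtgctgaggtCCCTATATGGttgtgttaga
Acta2 at -44 to -15, chr19:34255388-34255417, minus strand: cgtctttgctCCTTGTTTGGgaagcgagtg
Myl9 at -250 to -45, chr2:156775214-156775419, plus strand: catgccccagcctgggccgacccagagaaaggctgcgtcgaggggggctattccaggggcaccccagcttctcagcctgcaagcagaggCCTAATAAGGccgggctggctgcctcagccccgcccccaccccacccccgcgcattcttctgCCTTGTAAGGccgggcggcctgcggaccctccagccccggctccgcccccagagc
Tpm1 at -68 to -39, chr9:67049252-67049281, minus strand: tggctgtcctaaGGAATGcggtcgcccccc
Acta2 holds such CArG boxes at bases -84 to -75 and -34 to -25, each with a single G or C in its middle, and an MCAT element at -146 to -141. Myl9 holds a CArG box with only A and T in its middle at -161 to -152, and a box with a single G at -99 to -90. Tpm1 holds an MCAT element at -56 to -51, and 1 of the 2 windows of Cald1 holds one at -153 to -148. Neither motif was found in the windows of Cnn1 and Tpm2. Among all 32851 windows of this length, 1.47% hold a CArG box with only A and T in the middle, 8.59% hold a box with at most 1 G or C there, and 12.6% hold CATTCC on either strand. The motifs did not overlap in the sequences shown. A match describes letters and was not tested as a binding site.

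Acta2, the alpha actin of smooth muscle and the usual marker of myofibroblasts, was nearly absent from NSPs and abundant 24 h later. The 3 NSP libraries held 10.3, 3.62 and 3.53 CPM, and the 24 h libraries 401, 494 and 424 CPM. The 72 h libraries held 195, 219 and 292 CPM and the 1 week libraries 408, 323 and 381 CPM. The untreated mean was therefore highest at 24 h, lower at 72 h and higher again at 1 week. The 72 h values did not overlap with those of either neighbour in time, while 24 h and 1 week overlapped. Against NSPs the log2 difference of Acta2 was 6.25 (SE 0.65) at 24 h, 5.35 (SE 0.62) at 72 h and 6.00 (SE 0.64) at 1 week. These are 76.0-fold, 40.7-fold and 64.2-fold, and without NSP replicate 1 they became 122-fold, 65.5-fold and 103-fold. From 24 h to 72 h the log2 difference was -0.90 (SE 0.50), and from 72 h to 1 week 0.66 (SE 0.50). In bulk RNA, more cells that express a gene and more RNA per cell cannot be told apart.

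Actg2, the gamma actin of visceral smooth muscle, was detected mainly at 24 h. It had 0 counts in each NSP library and 11, 16 and 8 counts in the 24 h libraries, or 0.831, 0.895 and 0.652 CPM. At 72 h it had 1, 0 and 0 counts, and at 1 week 2, 2 and 4 counts. The 24 h level was at least 13.9-fold higher than in NSPs and the 1 week level at least 2.5-fold higher, each set against a floor of 3 counts over the NSP group. Between 24 h and 72 h the pooled counts of 35 and 1 give a ratio of 38.5, with an exact 95% counting interval from 6.46 to 1560. Counting intervals and floors cover counting error only.

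Tagln encodes transgelin, which cross-links actin filaments. Its NSP libraries held 0.254, 0.549 and 0.455 CPM and its 24 h libraries 6.57, 11 and 6.84 CPM. At 72 h the level was 2.12, 1.78 and 1.98 CPM, and at 1 week 7.02, 5.15 and 6.34 CPM. Like Acta2 it was low at 72 h between higher values at 24 h and 1 week, and 72 h did not overlap with either. The log2 difference from NSPs was 4.24 (SE 0.70) at 24 h, 2.18 (SE 0.75) at 72 h and 3.84 (SE 0.70) at 1 week. From 24 h to 72 h it was -2.06 (SE 0.58), a 4.17-fold lower level, and from 72 h to 1 week 1.66 (SE 0.58).

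Myl9, the regulatory light chain through which phosphorylation switches the motor on, was highest at 1 week. The NSP libraries held 16.4, 5.99 and 5.97 CPM and the 24 h libraries 190, 235 and 186 CPM. The 72 h libraries held 150, 162 and 225 CPM, overlapping with 24 h, and the 1 week libraries 387, 305 and 369 CPM, all above every other untreated library. The log2 difference of Myl9 from NSPs was 4.44 (SE 0.52) at 24 h, 4.25 (SE 0.52) at 72 h and 5.23 (SE 0.54) at 1 week. Without NSP replicate 1, in which Myl9 was highest of the NSP libraries, the 24 h difference became 5.09 (SE 0.59), or 33.9-fold in place of 21.7-fold. At 72 h it then became 29.8-fold in place of 19.0-fold, and at 1 week 58.9-fold in place of 37.6-fold.

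Tpm1 encodes a tropomyosin, the coiled coil that lies along the actin filament and sets the access of myosin to it. It differed from the genes above in its high level in NSPs, at 114, 99.0 and 103 CPM. At 24 h it stood at 213, 232 and 206 CPM, at 72 h at 245, 223 and 280 CPM, and at 1 week at 472, 448 and 469 CPM. The level was thus higher at each of the 3 times than in NSPs, the 24 h and 72 h values overlapped, and the 1 week values lay above all others. The log2 difference of Tpm1 from NSPs was 1.04 (SE 0.26) at 24 h and 2.13 (SE 0.26) at 1 week, and that between 72 h and 1 week was 0.89 (SE 0.25). The counts of Tpm1 sum over 21 annotated transcripts, muscle and non-muscle forms alike, which gene counts do not separate.

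Cald1 encodes caldesmon, which binds actin and tropomyosin and restrains myosin. It was likewise expressed in NSPs, at 84.5, 119 and 101 CPM. At 24 h it stood at 127, 138 and 149 CPM and at 72 h at 153, 128 and 164 CPM. At 1 week it stood at 262, 273 and 260 CPM, above all other libraries. The log2 difference of Cald1 was 0.44 (SE 0.16) between NSPs and 24 h and 0.84 (SE 0.16) between 72 h and 1 week, with the 24 h and 72 h values overlapping. The 18 annotated transcripts of Cald1 include the long form of smooth muscle and the short form of other cells, and both count here.

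Cnn1, calponin, is an actin binding protein that marks the differentiated smooth muscle cell, and Tpm2 is a tropomyosin of muscle. Both stayed low. Cnn1 was at 0.508, 0.165 and 0.284 CPM in NSPs, at 1.28, 1.73 and 1.06 CPM at 24 h, at 1.89, 2.15 and 1.82 CPM at 72 h and at 3.31, 3.12 and 3.38 CPM at 1 week. It was the only one of the 9 whose untreated replicates were separate at each of the 3 steps in time and higher at each. Tpm2 was at 0.190, 0.220 and 0.0569 CPM in NSPs and at 1.37, 1.21 and 0.845 CPM at 1 week, with 24 h and 72 h libraries between 0.378 and 0.503 CPM. Tpm2 rests on 1 to 31 counts per library.

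Myh11, the smooth muscle myosin heavy chain and the most specific marker of that cell type among the 9, did not separate from its NSP level at any time. Its range was 0.635 to 0.910 CPM in NSPs, from 0.447 to 1.36 CPM at 24 h, from 0.660 to 1.14 CPM at 72 h and from 0.883 to 2.11 CPM at 1 week. The log2 difference of Myh11 from NSPs was 0.30 (SE 0.48) at 24 h, 0.20 (SE 0.48) at 72 h and 0.76 (SE 0.46) at 1 week, on 8 to 30 counts per untreated library.

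Counted over the 9 genes, 8 had 24 h replicates wholly above those of NSPs, 7 had such 72 h replicates and 8 such 1 week replicates, and none lay below. Among all genes tested, 61.5%, 59.8% and 64.6% had replicates that did not overlap with NSPs in either direction at these times, and 52.7%, 55.3% and 58.6% were called by edgeR at an adjusted p under 0.05. Between 24 h and 72 h Acta2, Tagln and Actg2 lay wholly lower and Cnn1 wholly higher, where 41.3% of all genes did not overlap and 24.8% were called. Between 72 h and 1 week 8 of the 9 lay wholly higher, all but Myh11, where 26.9% of all genes did not overlap and 6.63% were called. Nothing is read from these counts, because the genes were picked with this time course known.

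**Figure D1:**
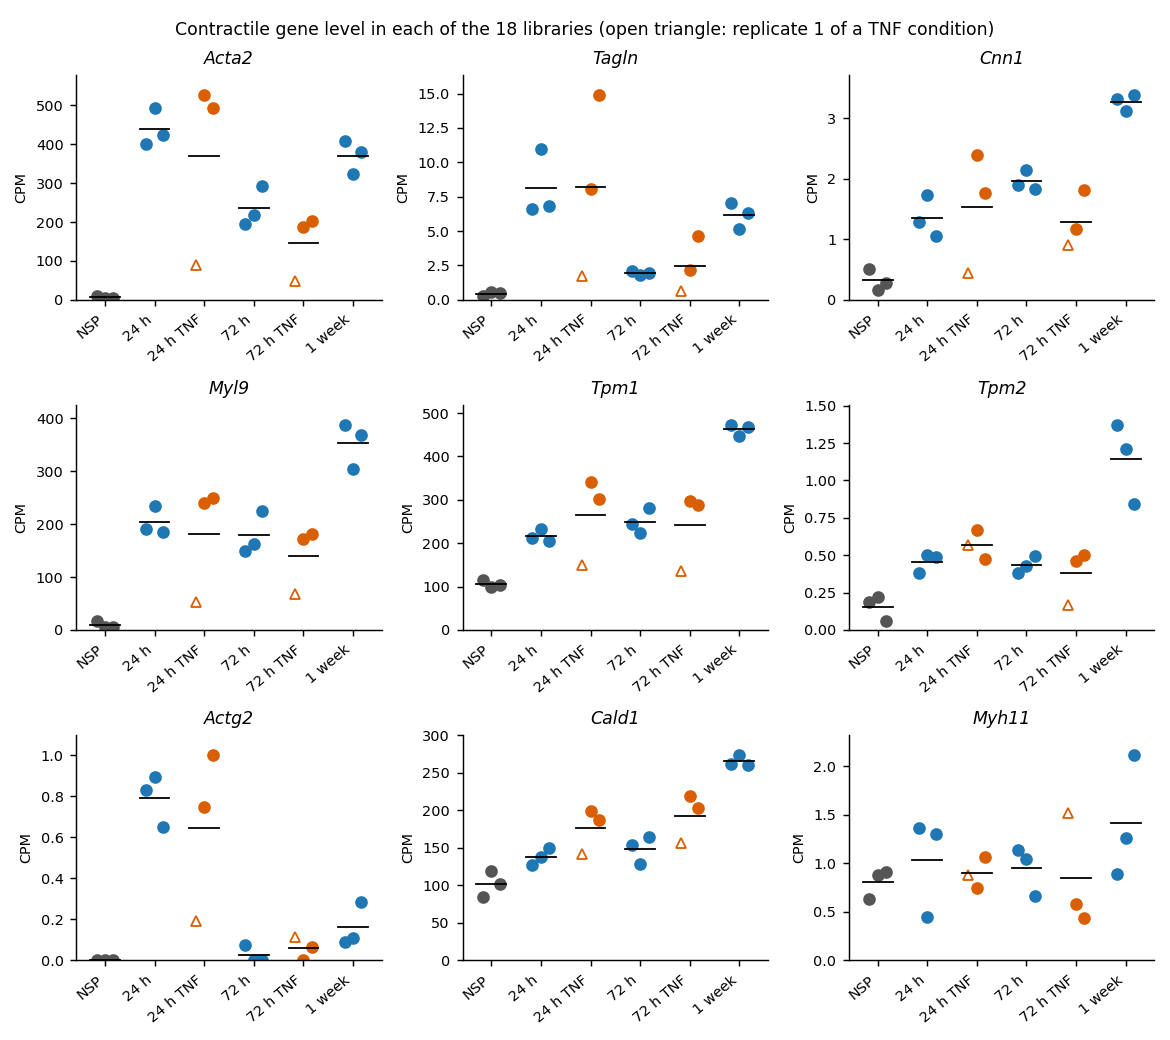
Level (CPM, linear axes that differ between panels) of each contractile gene in each of the 18 libraries, by condition, with a black bar at the mean of 3. Open triangles are replicate 1 of the TNF conditions. Acta2, Tagln and Actg2 are lower at 72 h than at 24 h, Myl9, Tpm1, Cald1, Cnn1 and Tpm2 are highest at 1 week, and Myh11 stays near 1 CPM.

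Levels per kilobase were taken over the union of all annotated exons of a gene. This union is 12041 bases for Cald1 and 6485 for Tpm1, against 2196 for Acta2 and 1162 for Myl9. It can be longer than the RNAs present, so the order of genes and the shares of paralogs below depend on the annotation. On this scale the set was made up almost wholly of Acta2, Myl9, Tpm1 and Cald1. These 4 genes held from 98.6% (NSPs) to 99.4% (72 h) of the summed level per kilobase in the untreated conditions. In NSPs the order was led by Tpm1 at 16.3 CPM per kb (SD 1.20, n = 3), followed by Cald1 at 8.44 (SD 1.44) and Myl9 at 8.15 (SD 5.20), the last pair overlapping, and Acta2 at 2.66 (SD 1.78). At 24 h Acta2 led at 200 CPM per kb (SD 22.1), not separate from Myl9 at 175 (SD 23.3), with Tpm1 at 33.5 (SD 2.04) and Cald1 at 11.5 (SD 0.884) after them. At 1 week Myl9 led at 304 CPM per kb (SD 36.9), wholly above Acta2 at 169 (SD 19.7) and Tpm1 at 71.4 (SD 1.97). Tagln, Cnn1, Tpm2, Actg2 and Myh11 stood at 4.09 CPM per kb or less on average in each untreated condition. Myh11, a heavy chain that pairs with such light chains in smooth muscle, was at 0.187 CPM per kb (SD 0.0829) at 1 week.

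**Figure D2:**
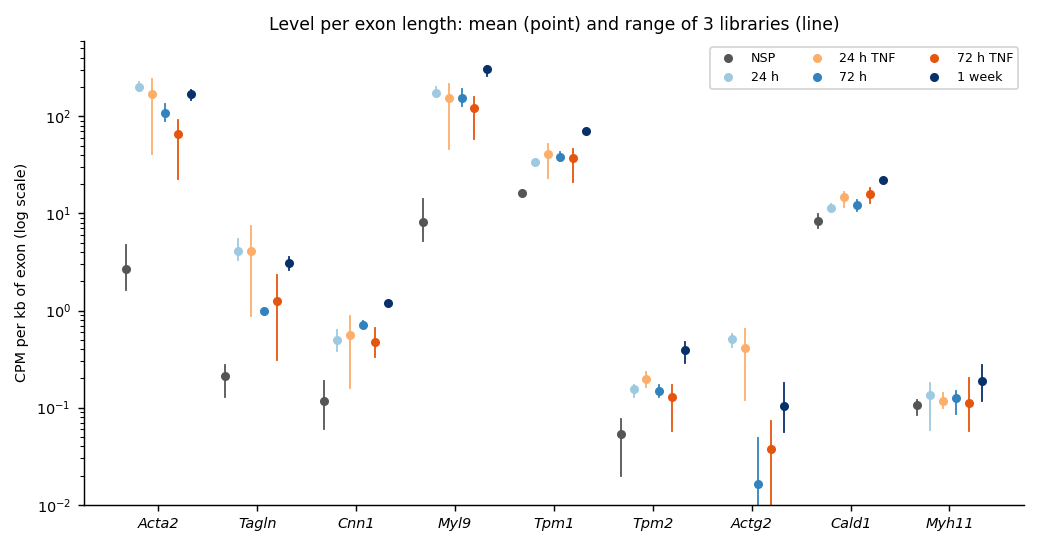
Level per kilobase of exon (log axis) of each contractile gene by condition, with points at the mean and lines over the range of 3 libraries. Lines that reach the lower edge include a library at 0, and Actg2 in NSPs, at 0, is not drawn. Acta2, Myl9, Tpm1 and Cald1 lie above 1 CPM per kb in each condition and Myh11 near 0.1.

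Relatives of these proteins, mostly non-muscle forms but with the muscle actins Acta1 and Actc1 among them, were compared over the same conditions as a list of 15 paralogs. At 24 h against NSPs 6 of the 15 rose and 4 fell (median log2 change 0.29, against 0.06 over all genes), at 72 h 6 rose and 3 fell (0.37 against 0.05), and at 1 week 9 rose and 3 fell (0.76 against 0.06), beside the background shares of all genes given above. Actb and Actg1, the cytoplasmic actins, did not pass the test at any of these times. Their log2 changes from NSPs to 24 h were 0.04 (SE 0.22) for Actb and 0.02 (SE 0.17) for Actg1. Acta2 therefore came from 0.198% of the level of Actb per kilobase in NSPs to 15.2% at 24 h, 8.97% at 72 h and 12.5% at 1 week. Against Actg1 it came from 1.19% to 92.9%, 60.5% and 74.3%. The other muscle actins went apart, since Acta1 of skeletal muscle rose by 1 week (5.37, SE 0.66, adjusted p = 1.49e-06) to 3.05, 1.26 and 3.87 CPM and Actc1 of the heart fell at 24 h (-4.09, SE 0.73, adjusted p = 0.000145) from 0.889, 5.00 and 5.01 CPM.

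Among the relatives of the actin binding members, Cnn2, a calponin of non-muscle cells, rose at 24 h (2.65, SE 0.42, adjusted p = 4.67e-05) and was 3.95 above NSPs at 1 week (SE 0.44, adjusted p = 4.29e-07). Its level of 202 to 271 CPM at 1 week was far above that of Cnn1. Tagln2 moved the other way from Tagln, falling at 24 h (-1.35, SE 0.21, adjusted p = 4.32e-05) and further by 1 week (-3.54 from NSPs, SE 0.24, adjusted p = 4.89e-10). Tagln stood at 0.959% of the level of Tagln2 per kilobase in NSPs and at 144% at 1 week. Tpm3 fell at 24 h (-0.62, SE 0.17, adjusted p = 0.00583), as did Tpm4 (-0.87, SE 0.29, adjusted p = 0.0159). Tpm1 per kilobase went from 57.3% to 173% of Tpm3 between NSPs and 24 h.

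Myosin chains of non-muscle cells were abundant. Myl6, the essential light chain, rose at 24 h (1.23, SE 0.18, adjusted p = 1.92e-05), and Myl9 went from 15.8% of its level per kilobase in NSPs to 145% at 24 h and 247% at 1 week. In NSP replicate 1 this share was 27.5%, and without that library the NSP mean was 9.98%. Myh10, a non-muscle heavy chain, rose at 24 h (1.04, SE 0.19, adjusted p = 0.000174), and Myh9 was above NSPs at 1 week (0.76, SE 0.18, adjusted p = 0.00138). Myh11 was at 0.161% to 0.217% of the level of Myh9 per kilobase on average in each of the 6 conditions.

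**Figure D3:**
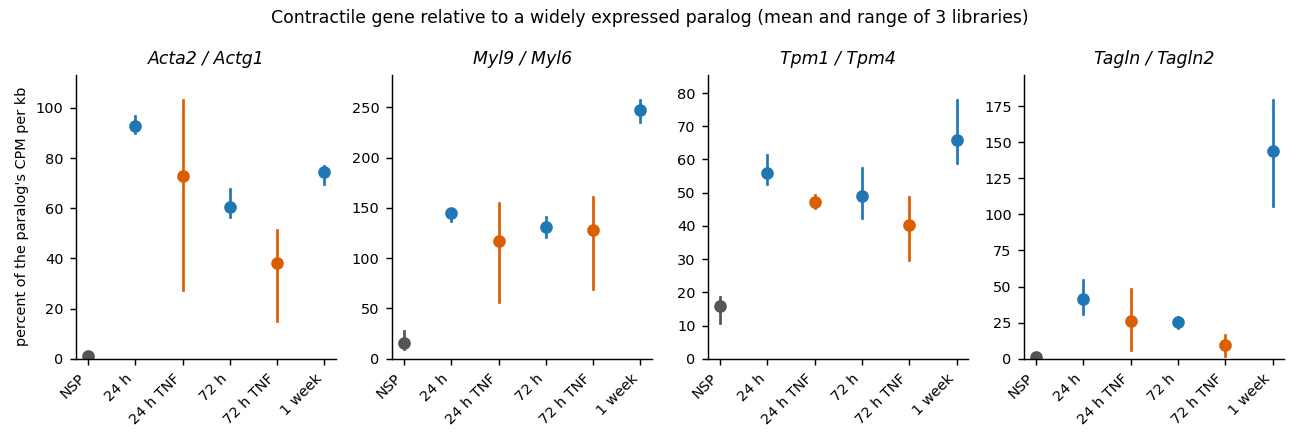
Level per kilobase of 4 contractile genes as a percent of that of a widely expressed relative, by condition, with points at the mean and lines over the range of 3 libraries (linear axes from 0). Acta2 peaks at 92.9% of Actg1 at 24 h, and Myl9, Tpm1 and Tagln reach their highest mean percent at 1 week.

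The question put to the TNF libraries was whether the cytokine changed these genes at 24 h or 72 h. With all libraries none of the 9 passed the test at either time (edgeR adjusted p). At an unadjusted p under 0.05, 1 passed at 24 h and 1 at 72 h, Cald1 in both, and DESeq2 called none either. Over all genes 3.5% were called at 24 h and 9.56% at 72 h, the latter as 873 higher and 1046 lower, which became 1069 higher and 741 lower with scaling by library totals. At 24 h TNF Acta2 was at 90.3, 527 and 493 CPM, so that replicates 2 and 3 lay at the upper end of the untreated values or above, and replicate 1 below all of them. The log2 difference was -0.25 (SE 0.50, edgeR adjusted p = 0.898). At 72 h TNF it was at 49.2, 186 and 202 CPM, with a log2 difference of -0.69 (SE 0.50, edgeR adjusted p = 0.417).

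Tagln, Myl9 and Tpm1 had the same split between replicates. At 24 h TNF Tagln was at 1.76, 8.05 and 14.9 CPM, Myl9 at 53.3, 240 and 250 CPM and Tpm1 at 150, 340 and 303 CPM. At 72 h TNF Tagln was at 0.620, 2.15 and 4.63 CPM, Myl9 at 67.3, 172 and 182 CPM and Tpm1 at 137, 298 and 288 CPM. In each of these sets the lowest value is that of replicate 1, from 2.14-fold below the mean of the other two for Tpm1 at both times to 6.51-fold below it for Tagln at 24 h. Cald1 shared the order but less of the size, at 141, 199 and 187 CPM at 24 h TNF and 156, 219 and 203 CPM at 72 h TNF, with ratios of 1.38 and 1.36. Cnn1 was at 0.441, 2.39 and 1.77 CPM at 24 h TNF and at 0.902, 1.16 and 1.81 CPM at 72 h TNF, where all 3 values lay below the untreated ones without passing the test (-0.60, SE 0.41, edgeR adjusted p = 0.382). Tpm2 was at 0.567, 0.671 and 0.472 CPM and then at 0.169, 0.464 and 0.501 CPM, and Myh11 went the other way at 72 h TNF, with 1.52 CPM in replicate 1 against 0.580 and 0.438.

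**Figure D4:**
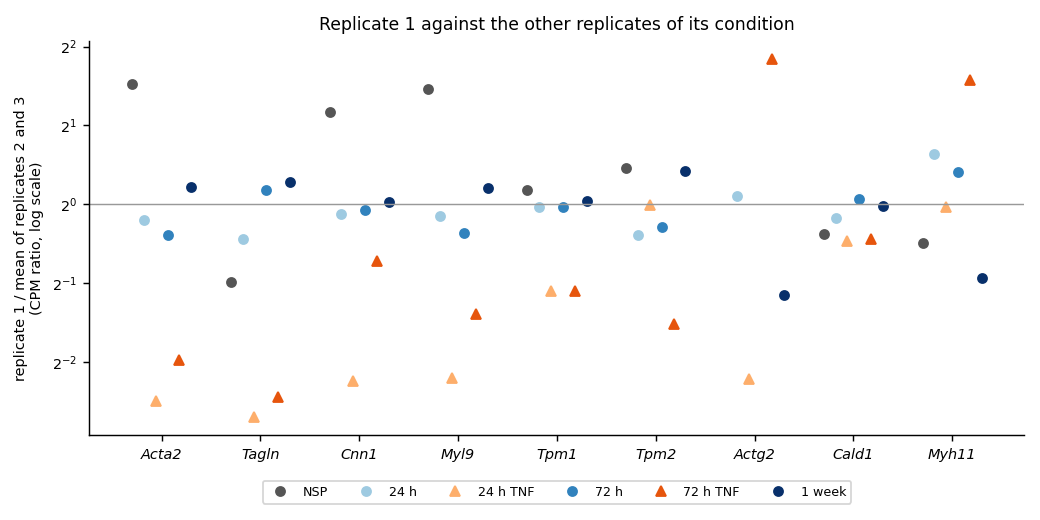
Level in replicate 1 divided by the mean of replicates 2 and 3 of the same condition (log2 axis) for each contractile gene, with triangles for TNF conditions. For Acta2, Tagln, Myl9 and Tpm1 the TNF triangles lie between 0.154 and 0.467, below the untreated differentiated conditions. Actg2 is not drawn where a term of its ratio is 0.

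Without replicate 1 of both TNF conditions, a choice made after its values were seen, the TNF effect on 2 genes passed the test. Tpm1 was then higher with TNF at 24 h (0.56, SE 0.12, 1.48-fold, edgeR adjusted p = 0.0094), against 0.29 (SE 0.25, edgeR adjusted p = 0.709) with all libraries. At 72 h its log2 difference was 0.23 (SE 0.12, edgeR adjusted p = 0.282). Cald1 was then higher with TNF at 72 h (0.50, SE 0.14, 1.42-fold, edgeR adjusted p = 0.027), against 0.38 (SE 0.16, edgeR adjusted p = 0.141) with all libraries. At 24 h the log2 difference of Cald1 was 0.48 (SE 0.14, edgeR adjusted p = 0.0659). In this smaller set 3.65% of all genes were called at 24 h and 8.77% at 72 h. Over all alternatives the adjusted p ranged from 0.0094 to 0.982 for Tpm1 at 24 h and from 0.027 to 0.432 for Cald1 at 72 h. Acta2 did not pass in either direction, at 0.21 (SE 0.27, edgeR adjusted p = 0.83) at 24 h and -0.29 (SE 0.27, edgeR adjusted p = 0.592) at 72 h.

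Over the 9 genes the median log2 difference with TNF at 24 h was 0.02 with all libraries and 0.29 without replicate 1, where the median over all genes was -0.01 and -0.02. At 72 h, leaving out Actg2 with at most 2 counts per library on both sides, the median over 8 genes was -0.18 and 0.05. The remaining members had adjusted p-values of 0.382 or more at both times with all libraries.

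TNF-treated cells were also compared between their 2 times, to see whether the lower level at 72 h than at 24 h was present with TNF. Tagln fell by 1.76 on the log2 scale (SE 0.56, edgeR adjusted p = 0.0458), 3.38-fold. Actg2 fell too (-3.30, SE 0.79, edgeR adjusted p = 0.0106), from 3, 10 and 17 counts at 24 h TNF to 2, 0 and 1 counts at 72 h TNF. The pooled counts of 30 and 3 give a ratio of 11, with an exact 95% counting interval from 3.43 to 56.4. Acta2 had a log2 difference of -1.34 (SE 0.51, edgeR adjusted p = 0.0923), which did not pass. So 2 of 9 were called, where 13.3% of all genes were. Actg2 had passed the filter on low counts through its 24 h libraries, the higher side of this comparison among them. Its call is therefore not independent of the filter, and nothing is read from the count of 2.

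These calls moved with single libraries. Without replicate 1 of both TNF conditions Acta2 fell (-1.38, SE 0.30, edgeR adjusted p = 0.00371), with Tagln (-1.76, SE 0.36, edgeR adjusted p = 0.00201) and Actg2 (-4.55, SE 0.88, edgeR adjusted p = 0.00175), where 16.9% of all genes were called. Without 24 h TNF replicate 1 alone Acta2 also passed (-1.77, edgeR adjusted p = 0.00489). The call on Tagln was lost when any of 15 of the 18 libraries was left out. For those outside the comparison its log2 difference stayed at -1.76 to -1.72, with edgeR adjusted p-values from 0.0528 to 0.0638. It was also lost with DESeq2 (-1.74, adjusted p = 0.0634) and with scaling by library totals (-1.67, edgeR adjusted p = 0.0628). Without 24 h TNF replicate 3, the highest Tagln library, neither Tagln (-0.99, edgeR adjusted p = 0.348) nor Actg2 (-2.79, edgeR adjusted p = 0.0721) passed. Over all alternatives the adjusted p ranged from 0.00201 to 0.348 for Tagln, from 0.00154 to 0.0721 for Actg2 and from 0.00371 to 0.354 for Acta2. Myl9, Tpm1, Cald1, Cnn1, Tpm2 and Myh11 had edgeR adjusted p-values of 0.412 or more with all libraries.

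The test of whether the TNF effect differed between 72 h and 24 h called none of the 9, with all libraries or without replicate 1, where 0.458% and 0.674% of all genes were called. At an unadjusted p under 0.05 it found 0 of them with all libraries and 1, Cnn1, without replicate 1, and DESeq2 called 0. Among the 9 the log2 difference between the effects was -0.44 for Acta2 (SE 0.71, edgeR adjusted p = 0.848) and 0.30 for Tagln (SE 0.80, edgeR adjusted p = 0.914).

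**Figure D5:**
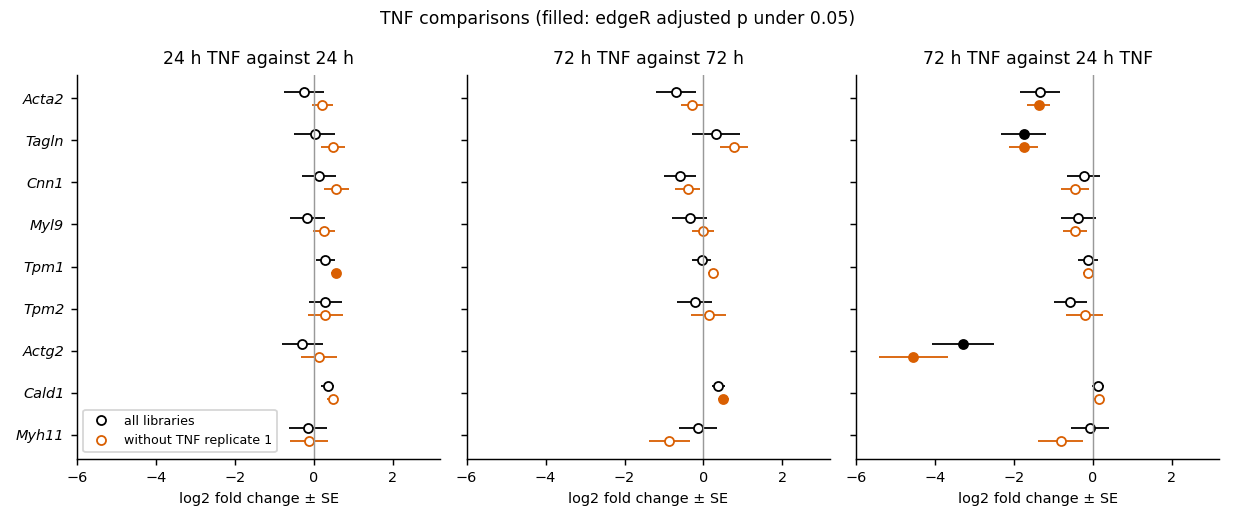
Log2 fold change with its standard error for each contractile gene in 3 comparisons, with all libraries (black) and without replicate 1 of the TNF conditions (orange), filled where the edgeR adjusted p is under 0.05. With all libraries Tagln and Actg2 are filled in the comparison of 72 h TNF with 24 h TNF, and leaving out replicate 1 adds Acta2 there, Tpm1 at 24 h and Cald1 at 72 h. Actg2 is not drawn for 72 h TNF against 72 h, where both groups had 3 counts or fewer.

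The regulators through which SRF acts on these promoters were measured as a list of 9, of which 8 were tested. Myocd, the cofactor specific to smooth and cardiac muscle, was at 0.0757 CPM at most in any library. Srf was at 13.8 to 18.1 CPM in NSPs and at 24 h, did not pass at 24 h (-0.22, SE 0.23, adjusted p = 0.421), and was above NSPs at 1 week (0.67, SE 0.22, adjusted p = 0.0146). Mrtfa was lower at 72 h than at 24 h (-0.93, SE 0.23, adjusted p = 0.00499), with 23.5, 23.1 and 37.6 CPM at 24 h and 17.9, 14.7 and 11.7 CPM at 72 h. Mrtfb was above NSPs at 1 week (0.78, SE 0.20, adjusted p = 0.00243) and rose from 24 h TNF to 72 h TNF (0.61, SE 0.20, adjusted p = 0.0464). Scai, which encodes a protein that represses MRTF and SRF activity, rose at 24 h (0.70, SE 0.14, adjusted p = 0.000568) and again at 72 h (0.69 from 24 h, SE 0.14, adjusted p = 0.00154).

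Klf4, whose product represses smooth muscle genes in vascular cells, fell at 24 h (-2.11, SE 0.36, adjusted p = 8.67e-05) and was below NSPs at 1 week as well (-1.88, SE 0.35, adjusted p = 0.000138). With TNF it was higher at 72 h (1.79, SE 0.35, adjusted p = 0.00248), and this held without replicate 1 (1.40, SE 0.27, adjusted p = 0.00176). Its higher level with TNF at 24 h (1.39, SE 0.36, adjusted p = 0.035) was led by replicate 1, at 15.2 CPM against 6.26 and 6.90, and did not pass without it (0.87, SE 0.28, adjusted p = 0.109). Elk3, a partner of SRF that competes with the MRTF proteins, was lower at 72 h than at 24 h (-0.59, SE 0.13, adjusted p = 0.00214). Its higher level with TNF at 72 h (0.42, SE 0.13, adjusted p = 0.0434) did not pass without replicate 1 (0.39, SE 0.14, adjusted p = 0.0879). Elk1 was below NSPs at 1 week (-0.37, SE 0.12, adjusted p = 0.012), and Elk4 did not pass in any comparison.

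Proteins that anchor and bundle stress fibres were compared in the same way. Of 19 tested, 13 rose and 1 fell at 24 h against NSPs (median log2 change 1.04, against 0.06 over all genes), 11 rose and 5 fell at 72 h (0.67 against 0.05), and 12 rose and 4 fell at 1 week (0.75 against 0.06). Over all genes 52.7%, 55.3% and 58.6% were called in these comparisons. Pdlim7, an adaptor of actin fibres, rose at 24 h (2.94, SE 0.25, adjusted p = 2.44e-08), and Palld, palladin, was 3.64 above NSPs at 1 week (SE 0.31, adjusted p = 1.33e-08). Flna, the actin cross-linker filamin A, rose from 72 h to 1 week (0.79, SE 0.23, adjusted p = 0.0498). Itga5, a fibronectin receptor chain, was below NSPs at 72 h (-1.56, SE 0.42, adjusted p = 0.00422) and at 1 week (-2.19, SE 0.44, adjusted p = 0.000309). Lima1, which bundles actin filaments, fell at 24 h (-0.57, SE 0.15, adjusted p = 0.00446).

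From 24 h to 72 h 1 of these 19 rose and 6 fell, where 24.8% of all genes were called, with Filip1l the largest fall (-1.87, SE 0.44, adjusted p = 0.00394). With TNF at 24 h none passed the edgeR test with all libraries, and without replicate 1 Lima1 was higher (0.56, SE 0.15, adjusted p = 0.0386, against 0.43, SE 0.15, adjusted p = 0.161). At 72 h Fhl2 (-1.90, SE 0.32, adjusted p = 0.000676) and Pdlim7 (-0.81, SE 0.22, adjusted p = 0.0273) were lower, and both passed without replicate 1 (adjusted p = 0.000787 and 0.00598). From 24 h TNF to 72 h TNF none rose and 6 fell with all libraries, and 7 fell without replicate 1, where 13.3% and 16.9% of all genes were called. The median log2 change of the list with TNF was 0.06 at 24 h and 0.11 at 72 h, against -0.01 over all genes at both times.

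Markers of the other cells that use contractile genes were checked in the same libraries. Among smooth muscle markers Synpo2, an actin binding protein of muscle, rose against NSPs (3.18 at 24 h, SE 0.27, adjusted p = 2.61e-08), while Smtn, smoothelin, fell (-0.76 at 24 h, SE 0.23, adjusted p = 0.0115). Lmod1, a smooth muscle leiomodin that starts actin filaments, rose from 24 h to 72 h (1.67, SE 0.21, adjusted p = 1.27e-05) and from 72 h to 1 week (1.12, SE 0.19, adjusted p = 0.00132). Des, desmin, stayed at 1.07 CPM or less.

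Of 9 pericyte markers 6 stayed under 1 CPM in all libraries, among them Pdgfrb with at most 0.603 CPM and Abcc9 with at most 0.126 CPM. The list's sum, made up mainly of Notch3 and Cspg4, which neural progenitors and oligodendrocyte precursors also express, went from 161 to 295 CPM in NSPs to 114 to 167 CPM at 24 h and 35.4 to 55.8 CPM at 72 h, and stood at 64.3 to 89.4 CPM at 1 week. Rgs5, a pericyte gene, rose at 24 h (4.34, SE 0.72, adjusted p = 7.41e-05) and stayed at 4.98 CPM or less. Of 9 fibroblast markers 5 stayed under 1 CPM, Col1a1 among them, and the sum was 56.7 to 62.1 CPM in NSPs, 22.2 to 23.8 CPM at 24 h, 7.72 to 10.2 CPM at 72 h and 6.45 to 7.82 CPM at 1 week. At 24 h against NSPs Fbln1 (-1.44, SE 0.21, adjusted p = 1.82e-05) and Pdgfra (-1.53, SE 0.33, adjusted p = 0.000859) fell, while Postn, a matrix protein of activated fibroblasts, rose (3.36, SE 0.95, adjusted p = 0.00639) to 0.982, 0.671 and 0.326 CPM. Of 7 endothelial markers 5 stayed under 1 CPM, with Cdh5 at 0.0704 CPM at most, of 7 microglia markers 5, with Ptprc at 0.189 CPM at most, and of 8 striated muscle markers 5, with Myod1 at 0.442 CPM at most.

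In the TNF comparisons 4 fibroblast, 4 endothelial, 4 striated muscle, 3 pericyte and 2 microglia markers were tested with all libraries. With TNF at 24 h, where 3.5% of all genes were called, Col3a1, a fibrillar collagen, was higher (2.12, SE 0.42, adjusted p = 0.00661, and 2.23 without replicate 1, adjusted p = 0.00731), at 1.20, 1.72 and 1.42 CPM against 0.227, 0.280 and 0.489 CPM. With TNF at 72 h, where 9.56% were called, Kdr, a VEGF receptor of endothelial cells, was lower (-2.27, SE 0.46, adjusted p = 0.00318, and -1.80 without replicate 1, adjusted p = 0.000626). Myh6 of heart muscle was lower there too (-1.73, SE 0.43, adjusted p = 0.015), and the pericyte marker Cspg4 was higher. From 24 h TNF to 72 h TNF, the comparison in which Tagln and Actg2 fell, 13.3% of all genes were called with all libraries. There 4 of 6 neuron markers and 3 of 5 oligodendrocyte lineage markers tested fell. So did 4 of 8 neural stem cell markers and 3 of 8 astrocyte markers, and no marker of these lists rose. Of the 4 fibroblast markers 3 fell. These were Fbln1 (-1.68, SE 0.23, adjusted p = 0.000141), Postn (-2.62, SE 0.78, adjusted p = 0.0318) and Pdgfra (-1.17, SE 0.36, adjusted p = 0.0382), and without replicate 1 Pdgfra did not pass (-1.34, SE 0.45, adjusted p = 0.0513). The fibroblast sum was 15.3 to 19.8 CPM at 24 h TNF and 5.28 to 8.06 CPM at 72 h TNF, and its part in the levels of the contractile genes was not tested. Over all libraries Fbln1 reached 50.0 CPM and Pdgfra 19.7 CPM, against 1.72 CPM for Col3a1 and 1.49 CPM for Postn. Leaving out replicate 1 added calls on Fbln1 (-1.12, adjusted p = 0.0012) at 72 h, on Higd1b (-3.16, adjusted p = 0.0125) and Myh6 (-2.60, adjusted p = 0.00459) at 24 h, and on Kdr (-1.10, adjusted p = 0.0298), Cspg4 and Myh6 (2.57, adjusted p = 0.0021) between the TNF times. Higd1b had not passed the filter with all libraries, and its level was only 0.0549 to 0.756 CPM over the libraries.

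Of 8 astrocyte markers 3 rose and 1 fell at 24 h against NSPs, where 52.7% of all genes were called. From 72 h to 1 week 6 fell and none rose, where 6.63% of all genes were called, led by Gfap (-5.26, SE 0.64, adjusted p = 5.59e-05). Gfap went from 1855, 3172 and 2270 CPM at 72 h to 55.9, 52.7 and 81.6 CPM at 1 week. In that interval 8 of the 9 contractile genes lay wholly higher, where 26.9% of all genes did not overlap in either direction. A link between the 2 changes was not tested. With TNF at 72 h 3 of the 8 fell and none rose, where 9.56% of all genes were called, with Gfap at -2.31 (SE 0.56, adjusted p = 0.0128), or -3.45 (SE 0.36, adjusted p = 5.06e-06) without replicate 1. Without replicate 1 Gja1 also fell there (-2.09, SE 0.29, adjusted p = 7.78e-05, against -1.35, SE 0.55, adjusted p = 0.132), which made 4 of the 8. At 24 h Aldoc alone fell with TNF (-0.65, adjusted p = 0.0417). Without replicate 1 Aldoc did not pass (-0.51, SE 0.17, adjusted p = 0.138), while Gja1 (-1.83, SE 0.29, adjusted p = 0.000735) and Slc1a2 (-0.60, SE 0.15, adjusted p = 0.0345) fell. The part of the makeup of the cultures in the levels of the contractile genes was not tested.

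Across the 18 libraries, genes were ranked by Pearson correlation of log2 CPM with each member, a description over libraries that share conditions and depth. Most like Acta2 outside the set were Hs3st1 (r = 0.982), Ccn2 (0.979), Dstyk (0.978), Frmd3 (0.978) and Cpne2 (0.975). Ccn2 encodes connective tissue growth factor, a secreted protein often induced by serum. By Spearman rank 0 of these 5 were among the 5 most alike and 4 among the 50 most alike, and over the 6 condition means 0 and 5 were, so that the order depends on the measure. Within the set Acta2 was nearest to Myl9 (r = 0.979), then Tagln (0.882), Cnn1 (0.866) and Tpm1 (0.837), and farthest from Myh11 (0.0931). Leaving out replicate 1 of the TNF conditions gave 0.983 for Myl9 and 0.150 for Myh11.

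Most like Myl9 were Ctnnal1 (r = 0.981), Frmd3 (0.980) and Cnn2 (0.980), and most like Tagln were Tmem163 (0.954), Epha4 (0.937) and Lrrk2 (0.920). For Cnn1 they were Sema3f (0.963), Cnn2 (0.957) and Flna (0.951), and for Tpm1 Slc44a1 (0.968), Frmd5 (0.965) and Flna (0.962). Cald1 was nearest to Mfsd6 (0.939), Cyld (0.934) and Chd9 (0.928), Actg2 to Pcsk7 (0.937), Dgki (0.937) and Hs3st5 (0.926), and Tpm2 to Car10 (0.880), Tnfrsf23 (0.874) and Gpc6 (0.874). Myh11 had no close companion, with Eaf2 (0.633), Gpr160 (0.630) and Gm37963 (0.621) the nearest. Cnn1 and Tpm1 were close to each other (r = 0.934), as were Tpm1 and Cald1 (0.896), while Actg2 and Cald1 were at 0.175.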

How the data were processed

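RNA of 18 mouse cultures was sequenced. The authors trimmed reads with Trim Galore, aligned them with STAR, counted them per gene with featureCounts (mm10 per the submitters' notes) and deposited raw counts for 54838 genes. All columns were used. Tool versions and the strand and multimapping settings are not given in the sources used here.

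edgeR (4.0.16) in R (4.3.3) estimated TMM factors, kept 20067 genes (filterByExpr by condition) and fitted its quasi-likelihood test to the 18 libraries together, 1 mean for each condition (12 residual degrees of freedom, biological coefficient of variation 0.18). P-values were adjusted by Benjamini and Hochberg over all genes tested, with a threshold of 0.05. Levels per kilobase used the union of GENCODE M21 exons, and a prior count of 2 went into log2 CPM. The fits of edgeR and DESeq2 were tested on simulated data. Alternatives included DESeq2 (1.42.0), other scalings and filters, a replicate block and leaving out each library.

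Replicate numbers come from the labels, and the table's column for 72 h replicate 3 carries another number. Same-numbered libraries deviated together in every pair of 72 h TNF and 24 h TNF (r of 0.291, 0.255 and 0.266) and, more weakly, of 72 h and NSPs (0.219, 0.15 and 0.0525). In the other comparisons the sign of r differed between pairs. Deviations were taken from the mean of 3 libraries, so the 3 values of a comparison are not independent.

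The members and lists were chosen with earlier results of these data known. The text names all members, their paralogs, the SRF regulators, the called gene with the largest change in each direction of a list, and the 5 (Acta2) or 3 (other members) genes most alike with a mean of at least 1 CPM. Further genes named were chosen after their values were seen. Some results of the lists, the count and the sum over the smooth muscle markers among them, are not reported here.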

Additional observations from a re-analysis of the deposited data

Results flagged for a closer look

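The effect of TNF differed between 72 h and 24 h for 2 of the 115 list genes tested, by the test of the difference itself (edgeR, all libraries), where 0.458% of all genes were called. For Fhl2, a LIM protein of adhesions and stress fibres, the log2 difference between the effects was -2.54 (SE 0.48, adjusted p = 0.0232). It was at 1.74, 1.17 and 0.815 CPM at 24 h against 1.26, 2.39 and 2.18 CPM with TNF, and at 5.83, 6.93 and 6.38 CPM at 72 h against 0.902, 1.80 and 2.44 CPM with TNF. Without replicate 1 of the TNF conditions it was -2.46 (SE 0.41, adjusted p = 0.00611). For S100b, an astrocyte marker, it was -1.32 (SE 0.26, adjusted p = 0.0309), and -1.33 (SE 0.27, adjusted p = 0.0253) without replicate 1. Without replicate 1 of the TNF conditions 4 more of 116 list genes tested passed, where 0.674% of all genes were called, namely Gfap and Aldoc (-1.13, SE 0.24, adjusted p = 0.0371) among astrocyte markers and, with a higher effect at 72 h, Olig1 (1.21, SE 0.27, adjusted p = 0.0441) and Olig2 (1.08, SE 0.18, adjusted p = 0.00608) of the oligodendrocyte lineage. With all libraries Aldoc (-0.92, adjusted p = 0.122), Olig1 (1.28, adjusted p = 0.388) and Olig2 (1.14, adjusted p = 0.0762) did not pass. No contractile gene passed this test.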

How the results depend on the processing

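Counts of contractile genes called moved in the comparison of 72 h TNF with 24 h TNF, where 2 were called. DESeq2 called 0 there (2 at an unadjusted p under 0.05, with no adjusted p for Actg2) and library totals 1. At least 10 counts in every library gave 0, since Tagln and Actg2 were then not tested, and a fit of only the groups compared gave 0, without Actg2 and Tpm2. Leaving out single libraries gave 0 to 3, where the call on Tagln was lost without 15 of the 18 libraries and that on Actg2 without 24 h TNF replicate 3. Leaving out replicate 1 of both TNF conditions, added after the data were seen, gave 3 there, 1 at each TNF time and 0 for the difference between the TNF effects. With a replicate block Tagln (-1.71, edgeR adjusted p = 0.0359) and Actg2 (-3.23, edgeR adjusted p = 0.0178) stayed called, and the block changed no other call on the 9 genes. Counts of members whose replicates did not overlap, with single libraries left out, were 8 to 9 (24 h), 7 to 8 (72 h) and 8 to 9 (1 week) against NSPs, 4 to 6 between 24 h and 72 h and 8 to 9 between 72 h and 1 week. Leaving out a library can only keep or raise such a count for any genes. The shares over all genes were not counted for these smaller sets, so nothing is read from the ranges.

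Signs changed for log2 differences that were not called. The block put Tagln at 24 h TNF against 24 h at -0.20, or -0.24 with 72 h replicate 3 unpaired, which also put Tagln at 72 h TNF against 72 h at -0.13, and it put the difference between the TNF effects on Myh11 at -0.02 or -0.31. At least 5 counts in total put Tagln at 24 h at 0.00, and library totals put Tpm1 at 72 h at 0.04. Ranges over leaving out single libraries, or replicate 1 of both TNF conditions, were as follows. At 24 h TNF against 24 h they were -0.60 to 0.21 for Acta2, -0.75 to 0.49 for Tagln, -0.31 to 0.57 for Cnn1, -0.48 to 0.26 for Myl9, -0.81 to 0.13 for Actg2 and -0.57 to 0.11 for Myh11. At 72 h TNF against 72 h they were -0.50 to 0.79 for Tagln, -0.23 to 0.24 for Tpm1, -0.47 to 0.14 for Tpm2 and -0.87 to 0.17 for Myh11. At 72 h TNF against 24 h TNF they were -0.64 to 0.23 for Cnn1, -0.38 to 0.18 for Tpm1 and -0.82 to 0.22 for Myh11. For the difference between the TNF effects they were -0.52 to 1.07 for Tagln, -0.59 to 0.17 for Myl9, -0.08 to 0.17 for Cald1 and -0.73 to 0.44 for Myh11. The causes were not tested.

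Over all genes the calls for the difference between the TNF effects numbered 92, 243 with DESeq2, 56 with at least 10 counts in every library, 38 in a fit of only the groups compared and 24 with the block that leaves 72 h replicate 3 unpaired. That block gave 986 calls for TNF at 72 h, where all libraries gave 1919, and the fit of only the groups compared gave 1277 there and changed the calls between the TNF times from 2670 to 828. Leaving out single libraries gave 360 to 932 calls over all genes for TNF at 24 h (703 with all libraries), with 360 to 367 when 1 of the 24 h replicates was left out and 474 without 24 h TNF replicate 1. For TNF at 72 h it gave 965 to 2922, with 965 and 1049 without 72 h replicates 2 and 3 and 2922 without 72 h replicate 1. Between the TNF times it gave 1233 to 3802, with 1233 and 1409 without 24 h TNF replicates 2 and 3 and 1620 without 72 h TNF replicate 3. For the difference between the TNF effects it gave 25 to 152, with 25 without 72 h replicate 2 or 3 and 152 without NSP replicate 1, and from 72 h to 1 week 610 to 1799 (1331 with all libraries), with 610 without 72 h replicate 2. Library totals moved the median of all genes for 1 week against NSPs from 0.059 to 0.174. Tpm2, Actg2, Cnn1 and Myh11 rest on few counts, so that small differences in them were not detectable at this depth.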

Other observations

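Gfap, the astrocyte marker that was highest in replicate 1 of both TNF conditions, also gave a larger difference between the TNF effects at 72 h and 24 h when that replicate was left out of both, at -2.69 (SE 0.45, edgeR adjusted p = 0.00599) against -2.43 (SE 0.77, edgeR adjusted p = 0.232) with all libraries. Tagln2, the transgelin of non-muscle cells, was higher with TNF at 72 h (1.85, SE 0.22, edgeR adjusted p = 2.52e-05), at 36.1, 22.2 and 30.2 CPM against 7.72, 8.65 and 8.09 CPM. Its difference was 1.67 (SE 0.23, edgeR adjusted p = 9.64e-05) without replicate 1, and with all libraries it was the only one of the 15 paralogs called with TNF at that time, where 9.56% of all genes were. Without replicate 1 Myh9, a non-muscle myosin heavy chain, was called too (0.51, SE 0.14, edgeR adjusted p = 0.0301, against 0.41, SE 0.18, edgeR adjusted p = 0.157). Cspg4, the proteoglycan NG2 of pericytes and oligodendrocyte precursors, was higher with TNF at 72 h (2.02, SE 0.41, edgeR adjusted p = 0.00326) and so without replicate 1 (1.07, SE 0.28, edgeR adjusted p = 0.019).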
